A study of Homo sapiens with 22 samples.

Results

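The 7 genes NPHS1, PODXL, PAX2, WNT4, NR5A1, AMHR2 and SOX9 act in kidney and gonad development, where the transcription factor WT1 is best known. They were chosen by name, and a peak belonged to a gene when it overlapped the gene with 10 kb added on each side (hg19, gene coordinates rounded to 1 kb). The 7 windows span 379 kb in all, and they held 547 of the 1311182 peaks on chromosomes in the 13 lists. Of those, 459 came from capture of tagged WT1, 0 from capture without a tagged protein and 88 from H3K4me3.

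All samples were K562, an established human leukaemia line of chronic myeloid origin, which here carried the bacterial biotin ligase BirA as a stable transfectant. In −KTS cells a second construct, driven by the EF1a promoter, added WT1 with a FLAG and biotin tag, with the 17 amino acid insert and without KTS, a lysine, threonine and serine stretch. The construct of +KTS cells differed by carrying KTS, and untagged cells had no second construct. Biotinylated WT1 was captured on streptavidin in 2 libraries of −KTS cells, 3 of +KTS cells and 3 of untagged cells, and H3K4me3 was immunoprecipitated in 3 libraries of −KTS and 2 of +KTS cells. Whether a line was 1 clone, and how much WT1 the cells made, is not given in the sources used here.

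WT1 is a zinc finger protein that is needed for the kidney and the gonad to form. The KTS insertion lies in the linker between the last pair of zinc fingers and weakens binding to the DNA sequence that the form without KTS recognises. In the adult kidney WT1 is kept in podocytes, the filtering cells of the glomerulus, and it is also expressed in some leukaemias. H3K4me3 marks the start of active and poised genes.

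The peak lists differed greatly in length, and this bears on every count below. The capture lists held 154732 and 3245 peaks in −KTS replicates 1 and 2, 543203, 373510 and 35455 in +KTS replicates 1, 2 and 3, and 743, 101 and 311 in untagged cells. H3K4me3 lists held 27341 to 53149 peaks. As a background, chromosomes 1 to 22 and X were cut into tiles of 47 kb, the median width of the 7 windows, and the 58354 tiles with a peak in any list were kept. Tiles were also cut at the width of each window, so that the number of peaks at a gene could be set beside that of all tiles of the same width. The lists give neither reads nor depth, so a gene without a peak is a gene where none was called, not one that was shown to be unbound. Copy number in K562 cells and regions that are hard to map were not tested.

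WT1 peaks were called at all 7 genes, but mainly in the long lists, which held peaks nearly everywhere. In +KTS replicates 1 and 2 all 7 genes held a peak, where 97.3% and 84% of tiles did. +KTS replicate 3 had peaks at 4 genes (39.2% of tiles), namely NPHS1, PODXL, PAX2 and WNT4, which were thus called in all 3 +KTS libraries, as were 36.7% of tiles. −KTS replicate 1 had peaks at 6 genes, all but SOX9 (74.3% of tiles). −KTS replicate 2 had a single peak, at NR5A1 (4.76% of tiles). No untagged library had a peak at any of the 7 genes, but their lists were the shortest and reached 1.19%, 0.17% and 0.48% of tiles, or 1.77% for any of them.

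By the rule of both −KTS libraries, 1 of the 7 genes was called (4.55% of tiles), and without −KTS replicate 2 it was 6 (74.3% of tiles). All 5 tagged lists met at 0 of the 7 genes (2.69% of tiles). By the rule of at least 2 of 3 +KTS libraries, all 7 were called (85.2% of tiles), and this fell to 4 without replicate 1 or without replicate 2. With 1 library left out the rule needs both others, and the share of tiles for that was not computed. For +KTS cells the share of genes stood near the background of tiles, and for −KTS cells it rested on the single peak of replicate 2. Since 6 of the genes carry H3K4me3, tiles with the mark in at least 2 lists are a closer background. Of those, 86.4% and 12.1% held a peak of −KTS replicates 1 and 2, with 11.8% in both. The 3 +KTS replicates reached 99.2%, 97.6% and 52.5% of them, with 97.5% in at least 2 and 52% in all 3, and 7.08% met all 5 tagged lists.

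**Figure D1:**
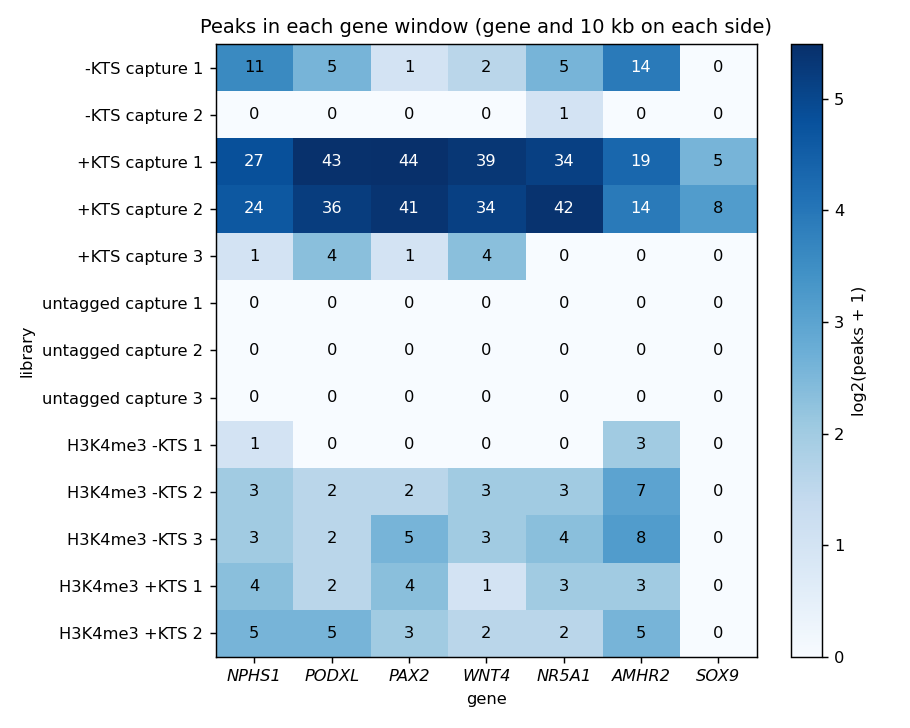
Number of peaks in each of the 7 gene windows (columns) in each of the 13 libraries (rows), with the colour on a log2 scale of the number plus 1. The untagged rows are 0 throughout, the +KTS replicate 1 and 2 rows hold 5 to 44 peaks per gene, and SOX9 has no peak in 11 of the 13 libraries.

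Once the tagged capture lists were held to equal length, few peaks were left at these genes, and few tiles held any either. The score of a peak is the authors' own value and was used to rank peaks within a list. The 1 exception was a cut at a score of 50 applied to all lists alike. Whether a score means the same in all lists is not known. When each tagged capture list was shortened to its 3245 best-scoring peaks, the length of the shortest, 5 of the 7 genes held no WT1 peak. What was left was the 1 peak of −KTS replicate 2 at NR5A1 and 2 peaks of +KTS replicate 2 at PODXL. The list of −KTS replicate 2 was kept whole, and its peak, exceeded by 65% of that list, was not among its best. Of tiles, 2.23% to 4.76% held a peak in these shortened lists, so the low count is not particular to these genes.

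With 5 tagged against 3 untagged libraries, no gene had every tagged library above every untagged one, a pattern found in 2.64% of tiles. The mean number of peaks in tagged libraries ran from 2.60 ± 3.71 at SOX9 to 17.6 ± 20.2 at PODXL (SD, n = 5), against 0 in untagged ones (n = 3), and the exact two-sided permutation p was 0.143 at NPHS1, PODXL, PAX2, WNT4 and NR5A1, 0.357 at AMHR2 and 0.714 at SOX9, where 0.0357 is the smallest p that 56 splits allow. These 7 tests were not adjusted over the genes. The numbers were not scaled to list length, and untagged lists of 743, 101 and 311 peaks could hardly reach any window. With 0 in every untagged library, each p depends only on how many tagged libraries also had 0 peaks at the gene. The tests therefore cannot tell capture of WT1 from list length. −KTS replicate 2 decided much of this: without it, 4 genes (NPHS1, PODXL, PAX2 and WNT4) had every tagged library above every untagged one, with an exact permutation p of 0.0571, the smallest possible there, but so did 32.1% of tiles. Without +KTS replicate 3 it was 1 gene, NR5A1, with the same exact permutation p (4.4% of tiles). With 50 kb in place of 10 kb on each side, the count rose from 0 to 3 (NPHS1, NR5A1 and AMHR2, exact permutation p = 0.0357, the smallest possible), against 8.92% of tiles cut at the median width of those wider windows.

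Among the genes for cell structure, NPHS1 encodes nephrin, the adhesion protein of the slit diaphragm between podocytes. It held 11 and 0 peaks in −KTS replicates 1 and 2 and 27, 24 and 1 in +KTS replicates 1, 2 and 3. The numbers of −KTS replicate 1 and +KTS replicates 1 and 2 were matched by 4.28%, 8.86% and 7.30% of 47 kb tiles. Among tiles with H3K4me3 in at least 2 lists, 10.7%, 18.0% and 14.7% had as many, so that NPHS1 stood out less. Close to the start, 0.96 kb inside the gene, a merged region (chr19:36341267-36342819) was called in −KTS replicate 1 and in +KTS replicates 1 and 2. No H3K4me3 peak came within 2 kb of the NPHS1 start in any of the 5 libraries. The mark stood instead in the gene, 6.45 kb from the start (chr19:36335873-36337231, all 5 libraries), and upstream at −4.63 kb (chr19:36346935-36348335, 4 of 5 libraries), on the side where KIRREL2 is the next gene. The mark inside the gene held a peak of −KTS replicate 1 (score 81) and of +KTS replicate 2 (scores 23 and 18). The upstream mark held a peak of +KTS replicate 1 (score 58).

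PODXL encodes podocalyxin, a sialomucin of the podocyte surface that is also found on blood progenitors and endothelium. −KTS replicates 1 and 2 had 5 and 0 peaks there, and the 3 +KTS replicates had 43, 36 and 4. As many were found in 8.64%, 7.82% and 4.84% of 77 kb tiles for the +KTS lists and in 27.8% for −KTS replicate 1. Among tiles with H3K4me3 these shares were 15.6%, 13.9% and 8.14%, and 46.3% for −KTS replicate 1. In +KTS replicates 1 and 2 PODXL had the best-ranked WT1 peak of the 7 genes, while in −KTS replicate 1 and +KTS replicate 3 WNT4 had it. The best PODXL peak in +KTS replicate 2 had a score of 247, exceeded by 0.568% of that list, and lay 43.6 kb inside the gene. The best peak of +KTS replicate 1 had a score of 156, exceeded by 2.17% of its list, at 16.6 kb. A pair of regions, at 24.0 and 22.9 kb (chr7:131217413-131218534 and chr7:131218742-131219395), were called in all 3 +KTS libraries, as was another at 50.8 kb (chr7:131190344-131192116). None of these 3 overlapped H3K4me3.

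At the PODXL start WT1 and the mark overlapped in +KTS cells. An H3K4me3 region of 1691 bp covered the start (chr7:131240380-131242070, in 4 of 5 libraries, not in −KTS replicate 1). +KTS replicate 1 had a peak in it with a score of 25, and +KTS replicate 2 had 2 peaks with scores of 38 and 137. A smaller H3K4me3 region just upstream, at −0.82 kb, was called in both +KTS libraries (scores 21 and 72) and in no −KTS library, whose lists hold no score under 50. At that floor it would be in +KTS replicate 2 alone. It also held a WT1 peak of +KTS replicates 1 and 2 (scores 58 and 144). −KTS replicate 1 had no peak within 2 kb of the start. Its nearest lay at −2.10 kb, outside any H3K4me3 peak.

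**Figure D2:**
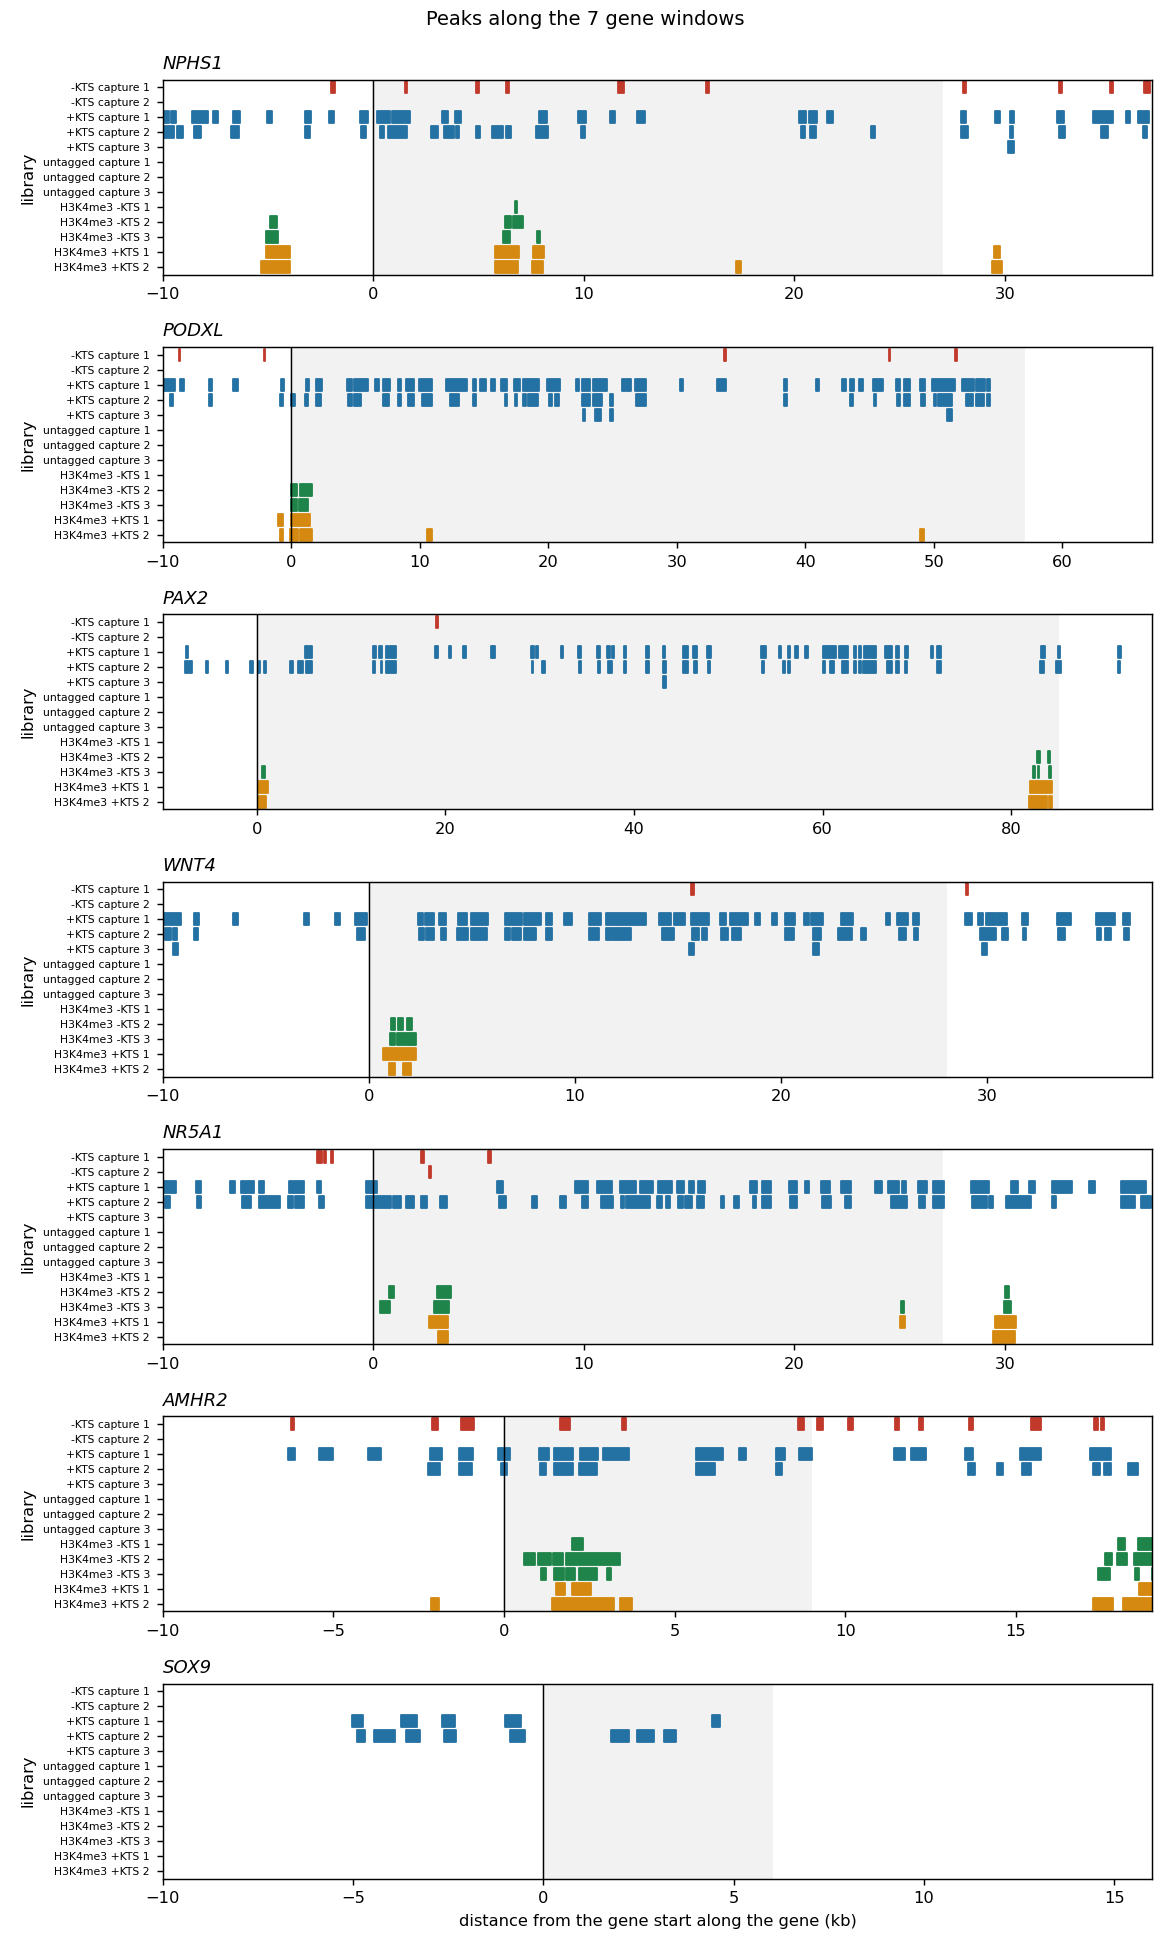
Peaks along each gene window, with the distance from the gene start in kb (x axis, in the direction of the gene), 1 row per library, and the gene body shaded grey; red is −KTS capture, blue +KTS capture, green H3K4me3 in −KTS cells and orange H3K4me3 in +KTS cells. H3K4me3 lies at the start of PODXL and just inside the start coordinate used for WNT4, away from the start of NPHS1, and nowhere at SOX9.

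WNT4 is a secreted ligand that makes kidney mesenchyme turn into epithelium and directs the ovary. At this gene 2 and 0 peaks were called with −KTS, against 39, 34 and 4 with +KTS. In +KTS cells this was high for each of the 3 lists, since 1.65%, 2.85% and 1.84% of 48 kb tiles had as many, and the peaks covered 41.3%, 26.7% and 2.08% of the window. Among tiles with H3K4me3 in at least 2 lists, 3.21%, 5.64% and 3.46% had as many. −KTS replicate 1 was ordinary here, with 48.6% of all tiles and 68.9% of those with H3K4me3 having as many. WNT4 was the only one of the 7 genes where all 3 +KTS libraries were among the top 5% of all tiles.

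WNT4 also held the 1 region of the 7 windows that was called in 4 of the 5 tagged libraries. It lay 16 kb inside the gene (chr1:22454519-22455474) and was missing only from −KTS replicate 2. The peak there was the best of the WNT4 window in −KTS replicate 1 (score 177, exceeded by 3.34% of the list) and in +KTS replicate 3 (score 115, exceeded by 12.7%). No H3K4me3 library had a peak in it. Over the genome 9288 of 652786 merged regions (1.42%) were called in 4 tagged libraries and 64 in all 5, against 1 and 0 of 249 in the windows.

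At the WNT4 start the mark and WT1 lay side by side without meeting. H3K4me3 was called in 4 of 5 libraries (chr1:22468732-22470322), centred 1.47 kb inside the start coordinate used here (22471000). That coordinate was not checked against transcript starts in hg19, so the mark may lie at a transcript start. All distances here are from that coordinate. In +KTS replicates 1 and 2 the nearest peaks lay at −0.39 and −0.37 kb on one side and at 2.50 and 2.54 kb on the other, and no WT1 library had a peak in the marked region. In all, 0 of the 77 +KTS peaks in this window overlapped H3K4me3. The bases before the WNT4 start are shown because WNT4 held the region that was called in 4 tagged libraries. They are the 250 bases before the RefSeq start (GRCh38.p14, chr1:22143098-22143347, minus strand), which is another build than that of the peaks, so they were not placed against them. Matches to the motifs named after it would be in capitals, and there are none.

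WNT4 promoter: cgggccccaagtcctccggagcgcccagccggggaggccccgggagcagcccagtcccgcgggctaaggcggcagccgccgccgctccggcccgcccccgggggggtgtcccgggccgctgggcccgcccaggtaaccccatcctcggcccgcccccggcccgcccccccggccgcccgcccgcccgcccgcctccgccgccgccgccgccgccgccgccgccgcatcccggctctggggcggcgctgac

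This stretch has 86.8% G and C, where the median of all RefSeq promoters was 58%. These motifs were looked for on both strands in the bases before the starts of the members that had an entry (NPHS1, PAX2, WNT4, NR5A1 and AMHR2). GCGNGGGNG, a zinc finger motif shared by WT1 and EGR1, was in 17% of 35116 promoters, and its special cases GCGTGGGAG and GCGGGGGCG were in 0.592% and 4.72%. TCCTCCTCC was in 3.18%. No entry of the 5 genes held any of the first 3. These letters being absent from 250 bases says nothing about the rest of the windows.

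AMHR2 encodes the receptor for anti-Müllerian hormone, which makes the Müllerian ducts regress in the male embryo. The −KTS lists had 14 and 0 peaks in its window, and the +KTS lists 19, 14 and 0. It was the gene with the most −KTS peaks, and only 0.611% of 29 kb tiles had as many in −KTS replicate 1, or 1.92% of tiles with H3K4me3. In +KTS replicates 1 and 2, 7.13% and 8.92% of tiles had as many, or 15.4% and 19.1% of tiles with H3K4me3. Of the 14 peaks of −KTS replicate 1, 3 were upstream, 3 in the gene and 8 downstream, the side where PRR13 is the next gene.

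AMHR2 also had the largest mean share of its window under H3K4me3 in both kinds of cell. It was 7.43% ± 4.61 (SD, n = 3) with −KTS, where +KTS cells had 8.72% ± 6.52 (SD, n = 2). This ranking rests in part on the short window of 29 kb. In bases, AMHR2 had the most in each −KTS library. In +KTS replicates 1 and 2 it had 1192 and 3864 bases, where NPHS1 had 3017 and 3664 and PAX2 3177 and 2990. By library the mark covered 3.35%, 12.4% and 6.50% of the AMHR2 window in −KTS replicates 1, 2 and 3 and 4.11% and 13.3% in +KTS replicates 1 and 2. A region of 1991 bp inside the gene, 2.39 kb from the start (chr12:53818398-53820388), was called in all 5 libraries. The best-scoring peak of every library, up to 1226 in −KTS and 1299 in +KTS cells, lay instead at the downstream edge of the window, 18.8 to 19.25 kb from the start and outside the gene, on the PRR13 side.

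WT1 of both isoforms met the mark inside AMHR2. A WT1 region 1.74 kb from the start (chr12:53818458-53819021) was called in −KTS replicate 1 (score 102), +KTS replicate 1 (score 124, exceeded by 5.98% of the list) and +KTS replicate 2 (exceeded by 7.58%), and the last pair were the best peaks of the window in their lists. The merged region overlapped H3K4me3 in all 5 libraries, and the −KTS peak by itself in 4 of them. It was the only WT1 region of the 7 windows that was called in both isoforms and marked in all 5. Neither −KTS replicate 2 nor +KTS replicate 3 had a peak in it. The bases before the AMHR2 start are shown because +KTS replicates 1 and 2 both had a peak over the start as rounded to 1 kb (scores 29 and 34). They are taken from RefSeq (GRCh38.p14, chr12:53423605-53423854, plus strand) and hold no match to the motifs searched.

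AMHR2 promoter: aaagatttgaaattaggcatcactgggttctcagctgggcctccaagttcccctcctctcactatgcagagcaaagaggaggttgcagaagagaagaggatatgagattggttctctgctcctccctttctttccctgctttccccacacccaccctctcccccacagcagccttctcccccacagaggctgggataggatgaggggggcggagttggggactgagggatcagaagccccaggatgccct

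Among the transcription factors, PAX2 sets up the kidney and its ducts. With −KTS it had 1 and 0 peaks, and with +KTS 44, 41 and 1. For a window of 105 kb, 14.9% and 10.3% of tiles had as many in +KTS replicates 1 and 2 (24.0% and 16.6% of tiles with H3K4me3). The −KTS number was low, since 90.1% of tiles had as many in replicate 1. Its 1 peak in −KTS replicate 1, with a score of 63, was exceeded by 95.7% of that list. A region at 43.2 kb (chr10:102548040-102548354) was called in all 3 +KTS libraries and was not at H3K4me3.

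H3K4me3 stood at both ends of PAX2 as given by the coordinates used here. RefSeq (GRCh38.p14) holds 2 promoter entries for PAX2 (chr10:100735146-100735395 and chr10:100745332-100745581), which were not placed against the peaks. At the start used here (chr10:102505103-102506138) H3K4me3 was called in −KTS replicate 3 and in both +KTS libraries. Near the end of the gene, 82.9 kb from the start (chr10:102586909-102588882), it was called in 4 of 5 libraries, with the higher scores of the pair in both +KTS libraries (443 and 298, against 321 and 82 at the start). +KTS replicate 2 had 2 peaks in the mark at the start, with scores of 39 and 32, and both long +KTS lists had 1 peak in the mark near the end (scores 47 and 89).

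NR5A1 encodes steroidogenic factor 1, a nuclear receptor that switches on steroid and sex-determining genes in gonad and adrenal. The −KTS replicates had 5 and 1 peaks at NR5A1, where the +KTS replicates had 34, 42 and 0. In +KTS replicate 2 only 0.675% of 47 kb tiles had as many, the smallest share of a +KTS library at the 7 genes, and 3.83% had as many in +KTS replicate 1. Among tiles with H3K4me3 the shares were 1.26% and 7.75%. It was the only gene with a peak in −KTS replicate 2, at 2.69 kb inside the gene (chr9:127267254-127267362, score 122, exceeded by 65.0% of that list). The nearest peak of −KTS replicate 1, at 2.34 kb, did not overlap it, so the −KTS libraries shared no region at any of the 7 genes.

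At NR5A1 the mark differed in place between libraries. Close to the start, at 0.64 kb (chr9:127269022-127269690), it was called in −KTS replicates 2 and 3 and in no +KTS library, and +KTS replicate 2 had 3 WT1 peaks there (scores 44, 54 and 106). At 3.17 kb (chr9:127266312-127267357) it was called in 4 of 5 libraries. The peak of −KTS replicate 2 touched that mark in +KTS replicate 1 but in no −KTS library. +KTS replicates 1 and 2 both had a peak over the rounded start, at −0.08 and 0.01 kb, with scores of 52 and 44. The bases before that start are shown because they hold the only motif match of the members. They come from RefSeq (GRCh38.p14, chr9:124507400-124507649, minus strand), and the capitals mark 3 overlapping matches to TCCTCCTCC on the opposite strand, whose first bases stand 30, 27 and 24 bases before the start.

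NR5A1 promoter: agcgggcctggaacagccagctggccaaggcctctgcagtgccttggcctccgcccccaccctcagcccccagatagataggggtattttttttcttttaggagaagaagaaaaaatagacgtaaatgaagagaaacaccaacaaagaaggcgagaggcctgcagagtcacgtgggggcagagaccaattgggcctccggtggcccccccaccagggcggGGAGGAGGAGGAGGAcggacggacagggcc

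SOX9 drives the Sertoli cell fate in the testis and also acts in kidney and cartilage. It was the emptiest of the 7 genes, with 0 and 0 peaks in −KTS cells, 5, 8 and 0 in +KTS cells and 0 in all 5 H3K4me3 libraries. No H3K4me3 in any library was found in 47.4% of tiles of 47 kb. For tiles of 26 kb, the SOX9 width, that share was not computed. Single H3K4me3 lists were called in 12.7% to 33.7% of tiles there, against 19% to 46.2% at 47 kb. The +KTS numbers were ordinary for a window of 26 kb, with 40.5% and 16.3% of tiles having as many, or 64.3% and 33.9% of tiles with H3K4me3. The best peaks of +KTS replicates 1 and 2 lay at the same place upstream of the gene, at −2.49 and −2.46 kb, with scores of 71 and 123. Both lists also had a peak at −0.79 and −0.68 kb, with scores of 39 and 73.

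The isoforms were set side by side as peaks per 10000 peaks of each list. At PODXL this gave 0.323 and 0 for the −KTS lists, where the +KTS lists had 0.792, 0.964 and 1.13, at WNT4 0.129 and 0 against 0.718, 0.910 and 1.13, and at PAX2 0.0646 and 0 against 0.810, 1.10 and 0.282. At these 3 genes every +KTS library was above both −KTS libraries, a pattern found in 12.8% of 47 kb tiles. The exact two-sided permutation p was 0.2 each, the smallest that 10 splits allow, so 0.05 is out of reach. The PODXL and PAX2 windows are wider, at 77 and 105 kb. The share of tiles was not computed at those widths or among tiles with H3K4me3. It was 17.5% in the wider tiles used for 50 kb flanks, so an excess at these genes is not shown. At NPHS1, AMHR2, NR5A1 and SOX9 the isoforms overlapped, with exact permutation p-values of 0.6 or 0.8. The opposite pattern, −KTS above +KTS without overlap, was found at none of the 7 genes and in 1.69% of tiles. Unscaled, the count of genes without overlap fell from 3 to 1 (share of tiles not computed). Without −KTS replicate 1, 4 genes had +KTS above (33.9% of tiles) and 1, NR5A1, had −KTS above (4.75%). Without −KTS replicate 2, PODXL, PAX2 and WNT4 had +KTS above (13.7%), and NPHS1 and AMHR2 had −KTS above (30.6%). The lowest score was 50 in every list of −KTS cells and 13 in every other. With all lists held to a score of at least 50, the count stayed at 3. The names of all 5 lists of −KTS cells, and of no other, say that they were pooled. What was pooled is not given in the sources used here, so whether these lists are separate replicates is unknown, and pooling cannot be told apart from the isoform here or in the H3K4me3 comparison.

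H3K4me3 was called at the same 6 genes in both kinds of cell. At least 2 of 3 −KTS libraries had a peak at 6 genes (26.7% of tiles), all but SOX9, and both +KTS libraries had one at the same 6 (24.8% of tiles). Single −KTS libraries had it at 2, 6 and 6 genes (19%, 31.6% and 27.9% of tiles) and single +KTS libraries at 6 and 6 (26.4% and 46.2%). All 5 had it at NPHS1 and AMHR2 (16.2% of tiles), and at least 4 at 6 genes (22.9%). Each window holds a whole gene, while tiles were cut without regard to genes. No background of gene windows was computed, so these counts are not shown to be particular to the 7 genes. For −KTS replicate 2, 42.5% and 50.6% of tiles held the mark at the widths of PODXL and PAX2, and 23.2% at that of AMHR2. −KTS replicate 1, with the lowest cover of the 5 lists at 9.55 Mb, had a peak only at NPHS1 and AMHR2. Without −KTS replicate 2 or 3 the −KTS number therefore fell to 2 (share of tiles not computed). With every H3K4me3 list shortened to its 27341 best peaks, the −KTS number was also 2 and the +KTS number 5. At NPHS1 the best H3K4me3 peak was exceeded by 30.4% to 64.4% of its list, and at AMHR2 by 0.585% to 49.5%.

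At NPHS1, PODXL and PAX2 the H3K4me3 cover was higher in both +KTS libraries than in all 3 −KTS libraries, but 5 libraries cannot reach a p of 0.05. At NPHS1 it was 0.245%, 2.36% and 2.196% of the window in −KTS replicates 1, 2 and 3 and 6.42% and 7.80% in +KTS replicates 1 and 2. At PODXL it was 0%, 1.81% and 1.38% against 2.36% and 3.18%, and at PAX2 0%, 0.499% and 0.741% against 3.03% and 2.85%. At these 3 genes the groups did not overlap (exact two-sided permutation p = 0.2 each, the smallest possible). This pattern was found in 9.43% of 47 kb tiles, and in 29% of those with H3K4me3 in at least 2 lists. The PODXL and PAX2 windows are wider, at 77 and 105 kb, and the shares at those widths were not computed. The reverse pattern, with cover higher in −KTS cells, was found at 0 of the genes and in 0.195% of tiles. At WNT4, NR5A1 and AMHR2 the libraries overlapped, with exact permutation p-values of 0.4, 0.4 and 0.8. Whole lists of +KTS cells covered 22.1 and 30.2 Mb, against 9.55, 23.3 and 17.2 Mb in −KTS cells. Without −KTS replicate 3 or without +KTS replicate 2, WNT4 and NR5A1 joined them, for 5 genes (10.5% and 13.2% of tiles).

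**Figure D3:**
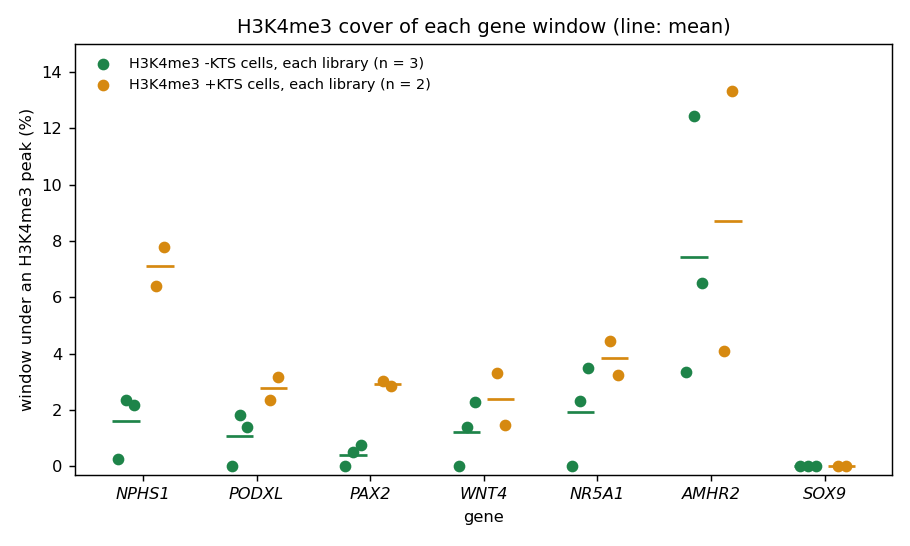
Share of each gene window under an H3K4me3 peak (y axis, percent) in each library (points) with the group mean (line), for −KTS cells (green, n = 3) and +KTS cells (orange, n = 2). The groups do not overlap at NPHS1, PODXL and PAX2, AMHR2 reaches 13.3%, and SOX9 is 0 in all libraries.

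WT1 met H3K4me3 of the same cells at 2 of the 7 genes in −KTS cells and at 5 in +KTS cells. The −KTS genes were NPHS1 and AMHR2 (9.76% of tiles, 29.3% of tiles with H3K4me3 in at least 2 lists). The +KTS genes were NPHS1, PODXL, PAX2, NR5A1 and AMHR2 (44.8% and 91.5% of those tiles). WNT4 and SOX9 had no such overlap in either kind of cell. At AMHR2, 1 of the 3 −KTS peaks at the mark was inside the gene and 2 were downstream. All −KTS overlaps came from replicate 1, and the number was 0 without it.

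Most WT1 peaks at the 7 genes were away from the mark, as in the whole lists other than that of −KTS replicate 2. In −KTS replicate 1, 4 of 38 peaks were at H3K4me3 of the same cells (10.5%, exact 95% Clopper-Pearson interval 2.94% to 24.8%), against 5.44% of all peaks of that list. In −KTS replicate 2 it was 0 of 1 (interval 0 to 97.5%) against 53.1% of the list. In +KTS replicate 1 it was 15 of 211 (7.11%, interval 4.03% to 11.5%) against 7.94% of the list, and +KTS replicate 2 had 20 of 199 (10.1%, interval 6.25% to 15.1%) against 13%. +KTS replicate 3 had 0 of 10 (interval 0 to 30.8%) against 15.8%. The share of the list lay inside the interval of the windows in −KTS replicate 1 and +KTS replicates 1 and 2. For −KTS replicate 2 this could not have come out otherwise, since an interval from 1 peak holds 53.1% either way. The 10 peaks of +KTS replicate 3 left an interval too wide to tell much. These intervals treat peaks as independent and cover counting error only. Codes in the names of the lists tie +KTS capture replicate 2 to H3K4me3 +KTS replicate 1, and within that pair 14 of 199 peaks (7.04%) were at the mark, against 7.27% of the list. Capture replicate 3 and H3K4me3 replicate 2 also share a code, with 0 of 10 against 14.8%. In these last 2 lists the names of the peaks carry another code than the name of the list, the same in both, so that pairing is uncertain.

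Seen from the mark, 24 merged H3K4me3 regions lay in the windows, of which 3 were in all 5 libraries and 7 in 4. A peak of +KTS replicate 1 was in 16 of the 24 (66.7%, against 58.2% of the 72310 regions of the genome), of replicate 2 in 17 (70.8% against 56.9%) and of replicate 3 in 0 (8.03%). −KTS replicates 1 and 2 had a peak in 6 (25% against 22.52%) and 1 (4.17% against 2.80%). Of the 10 regions found in at least 4 libraries, −KTS replicates 1 and 2 had a peak in 30% and 10%, against 29.2% and 8.61% of such regions of the genome. The 3 +KTS replicates had one in 60%, 70% and 0%, against 64.4%, 85.9% and 2.95%.

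By pattern of calls, PODXL, PAX2 and WNT4 were alike in all 13 libraries. NPHS1 differed from each of them in 1 library, H3K4me3 −KTS replicate 1. SOX9 was the least alike, matching NPHS1 in 6 of 13 libraries and the other genes in 7. Matches between tiles were not counted. Lists called in most tiles (97.3% and 84% for +KTS replicates 1 and 2) or in few (at most 1.19% for untagged ones) match at most places. The likeness was thus not shown to be particular to these genes.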

How the data were processed

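The authors deposited 1 peak list per library, giving each peak a position and a score in whole numbers. Per the submitters' processing notes, Bowtie2 2.2.7 and MACS2 2.1.1.20160226 were used with hg19. Not given in the sources used here are the control, the filters, the threshold and what was pooled in the −KTS lists, whose names say so. The 9 input libraries were not analysed here.

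Only peaks on chromosomes (1 to 22, X, Y) entered, and an overlap was at least 1 bp. Tiles without a peak in any list were left out. Gene coordinates came from the rule that named the genes, with strands that matched RefSeq for 5 genes and were taken from general knowledge for PODXL and SOX9, and a peak was at a start when it overlapped 2 kb on each side. No hg19 annotation or sequence was used, so exons, introns and the other kidney and gonad genes that were planned were not analysed. Promoter sequences are RefSeq (GRCh38.p14, 5 of the 7 genes matched), neighbouring genes are named from RefSeq, and no coordinate was converted. Peak lists cannot check the cell line against its markers. All 7 genes were named, and regions were shown when they were the best of a list or recurred between libraries, which in places went beyond the planned rule. These genes and rules were chosen with earlier results of these data known. Tests were exact two-sided permutation tests over libraries. Nothing in the labels states whether replicates are separate cultures. The p-values thus capture just the variation among these libraries, possibly technical. Alternatives were a score of at least 50, flanks of 0 and 50 kb, lists of equal length, other overlap rules, a replicate block and leaving out each library. Python 3.11.15, numpy 2.4.6, pandas 2.3.3 and scipy 1.17.1 were used. On simulated data all planted peaks were recovered in 20 of 20 lists, and 91 of 91 counts equalled those of bedtools 2.31.1.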

Additional observations from a re-analysis of the deposited data

How the results depend on the processing

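A score of at least 50 and windows without flanks left all 10 counts of genes as reported. With lists of equal length, 0 genes were called in both −KTS lists, 0 in at least 2 +KTS lists and 2 by H3K4me3 in −KTS cells, 0 genes had WT1 at H3K4me3 in either kind of cell, and 0 had isoforms without overlap. Fewer peaks per list were tested there. With 50 kb flanks, 3 genes were called in both −KTS lists (10.9% of tiles of their median width), 3 had every tagged above every untagged library (8.92%) and 5 had H3K4me3 cover without overlap (17.9%). The isoforms were then without overlap at 4 genes, PODXL, PAX2 and WNT4 with +KTS above (17.5%) and AMHR2 with −KTS above (3.96%). Unscaled, 1 gene had isoforms without overlap. For the unscaled lists and the lists of equal length, the share of tiles meeting these rules was not computed. Leaving out 1 library at a time gave 1 to 6 genes in all remaining −KTS lists, 4 to 7 in at least 2 +KTS lists and 2 to 6 by H3K4me3 in −KTS cells. It gave 0 to 2 genes with −KTS WT1 at H3K4me3, 0 to 4 with tagged above untagged, 3 to 5 with isoforms without overlap in either direction and 3 to 5 with H3K4me3 cover without overlap.

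The difference of −KTS minus +KTS in peaks per 10000 turned sign at genes whose isoforms overlapped. At NPHS1 it was −0.118 as reported, 0.0104 without flanks, 0.939 with 50 kb flanks, and −0.474 to 0.237 leaving out single libraries (−KTS replicates 1 and 2). At AMHR2 it was 0.211 as reported, −0.0118 without flanks and 3.15 with 50 kb flanks. It was −0.242 to 0.663 leaving out −KTS replicate 1 or 2, and −4 as unscaled peaks. At NR5A1 it was 1.12 as reported, −0.26 to 2.5 leaving out −KTS replicate 2 or 1, and −22.3 as unscaled peaks. The difference in H3K4me3 cover at AMHR2 was −1.29 percentage points, and ranged from −5.9 without its +KTS replicate 1 to 3.31 when replicate 2 was dropped, with 0.747 when −KTS replicate 1 was. The cause was not tested.

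Whether libraries with the same replicate number belong together could not be told. Over tiles, their deviations from the group mean had correlations of 0.0259, −0.00416 and 0.00369 for +KTS and untagged capture. For −KTS and +KTS capture they were 0.356 and −0.249, and for H3K4me3 0.0878 and 0.0811. In a group of 2 libraries the deviations mirror each other, so such values are not separate evidence. Libraries of unlike number were not compared. With the replicate block, all pairs went 1 way at 4 genes for +KTS against untagged, at 4 for −KTS against +KTS and at 6 for H3K4me3 cover. The share of tiles that do the same was not computed, so these counts have no background and say nothing particular about the genes. No block can pass a p of 0.05 with 2 or 3 pairs. Read depth is unknown and limits every statement on a missing peak.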

Other observations

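Beyond the windows, SOX9 stayed the emptiest of the 7 genes. With 50 kb on each side of the gene it held 1 and 0 peaks in −KTS, 13, 12 and 0 in +KTS and 0 in all untagged and H3K4me3 libraries. The same width around AMHR2 held 39 and 2, 57, 42 and 5 peaks, with 6 to 14 peaks in each H3K4me3 library.

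The short list of −KTS replicate 2 gained 3 peaks between 10 and 50 kb. One lay 27.2 kb upstream of NPHS1 (chr19:36370107-36370275, score 217), overlapped a peak of −KTS replicate 1 and lay at no H3K4me3 peak. The other 2 lay 42.9 and 42.6 kb upstream of AMHR2 (chr12:53774098-53774206 and chr12:53774324-53774433, scores 88 and 89), on the side where SP1 is the next gene, at H3K4me3 in 4 and 2 of 5 libraries, and overlapped no peak of −KTS replicate 1. No untagged library had a peak within 50 kb of any of the 7 genes.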
